A study of Mus musculus with 6 samples.

Results

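The 81 cytosolic ribosomal protein genes are the rows of the deposited mouse count table whose symbols name a protein of the cytosolic ribosome. They were chosen by symbol alone: Rps or Rpl with a number and an optional a, l, x or y ending, an Rps or Rpl symbol with a further l for a like gene, or Rplp0, Rplp1, Rplp2 and Rpsa, with symbols of pseudogenes left out. They were 81 of 21534 rows, 32 of the small subunit, 46 of the large subunit and 3 of the large subunit's stalk. The libraries were made from enteroids, small hollow spheres of intestinal epithelium grown in culture, here of ileal origin and from wild-type C57Bl/6 animals. All 6 cultures had 96 hours of 10 μM CHIR99021, which blocks GSK3 and so turns on Wnt signalling, the pathway that keeps crypt cells in a stem cell state. Then 3 received 10 μM retinoic acid, the vitamin A derivative that binds nuclear retinoic acid receptors, for 24 hours, and 3 received vehicle (DMSO). RNA was made into strand-specific polyA libraries. Nothing in the labels tells whether libraries within a group had different animals or wells as their source. Every p-value therefore rests on the spread between these libraries, which may be technical.

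Each ribosome carries one copy of nearly every ribosomal protein around a core of ribosomal RNA. The small subunit reads the messenger RNA and the large subunit joins amino acids, while the stalk recruits the factors that drive translation. Most vertebrate ribosomal protein mRNAs begin with a tract of C and T bases, the 5′ terminal oligopyrimidine or TOP motif, through which the kinase complex mTORC1 and the RNA-binding protein Larp1 control their translation. In the intestine, proliferating crypt cells are known for high ribosome production. The genes are also known for the many processed pseudogenes, intronless copies of their mRNAs, found elsewhere in mammalian genomes.

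Start windows of 6 members are shown because the pyrimidine tract is the feature these mRNAs are known for, and their measured changes are given further on. Each runs 5′ to 3′ on the gene's strand, from 15 bases before to 15 bases after the start that RefSeq gives on GRCm38.p6, with its longest run of C or T in capitals.
Rps6, chr4:86857353-86857382, minus strand: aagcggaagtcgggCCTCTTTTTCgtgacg
Rps10, chr17:27635230-27635259, minus strand: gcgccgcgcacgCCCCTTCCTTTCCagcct
Rpl15, chr14:18270972-18271001, minus strand: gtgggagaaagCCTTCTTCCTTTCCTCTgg
Rpl27a, chr7:109519180-109519209, plus strand: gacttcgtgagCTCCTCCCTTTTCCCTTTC
Rplp2, chr7:141447636-141447665, plus strand: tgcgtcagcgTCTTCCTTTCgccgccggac
Rpl5, chr5:107900513-107900542, plus strand: TCTCacgtcgcttgcgtgctggtggtgcta
The longest tracts printed, in Rpl27a and Rpl15, held 19 and 17 bases, and that of Rps6 held 10. Rpl5 had a longest run of 4 bases, at the far end of the window. Of the 81 members, 61 had an entry, with 73 start windows among them. A run of at least 8 C or T bases was in 28 of the 73 member windows (38.4%), from 27 genes, against 12% of all 32851 RefSeq start windows. A window whose RefSeq start lies away from the start used in these cells can miss the tract. The direct repeat AGGTCANNNNNAGGTCA, an arrangement that retinoic acid receptors are known to bind, was on neither strand of any of the 73 member promoters of 300 bases, and it was in 3 of 32851 promoters overall. The E-box CACGTG, the motif of Myc and related factors, was in 8 of the 73 member promoters (11%) and in 7.15% of all. These matches describe letters in a window and say nothing about binding.

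No ribosomal protein gene passed the test for a change after 24 hours of retinoic acid. By edgeR's quasi-likelihood test with Benjamini-Hochberg adjustment over the 13700 rows tested, at an adjusted p under 0.05, 0 of the 80 tested members were higher and 0 were lower. Of all tested genes, 9.46% were called, 5.37% higher and 4.09% lower. DESeq2's Wald test and limma-voom also called 0 of the 80. Some other settings, among them the replicate number as a block, did call members, and their counts are given in the last section. An unadjusted p under 0.05 was reached by 7 of the 80 members, against 21.6% of all tested genes. Leaving out the third retinoic acid library changed the count from 0 to 4 higher: Rpl12, Rpl32, Rpl4 and Rpl7. Calls over all genes rose in that fit too, to 978 higher and 787 lower of 13932. With all libraries they were 736 and 560 of 13700. In bulk RNA, a change in the number of cells of a type and a change in RNA per cell cannot be told apart.

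The intervals show how large a change could have been missed. For 70 of the 80 members the 95% interval of the fold change lay within 1.5-fold in either direction, as it did for 71.5% of all tested genes. For 26 of the 80 it lay within 1.2-fold, against 31.1% of all tested genes. The median log2 fold change (retinoic acid minus vehicle) of the 80 members was 0.04, and the median of all tested genes was -0.01. Of the 80 members, 51 were above 0, against 48% of all tested genes. With library totals and no scaling factor, the medians of members and of all tested genes were -0.02 and -0.07, with 36 members above 0. The sign of the members' median thus depended on the scaling. The standard errors of the members ran from 0.05 for Rpl8 to 0.44 for Rps27. In 13 of the 80 members the groups did not overlap in CPM (a gene's reads as a rate over all reads of tested genes in its library, after scaling), against 25.5% of all tested genes. Retinoic acid was above vehicle in 6 of these and below it in 7.

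**Figure D1:**
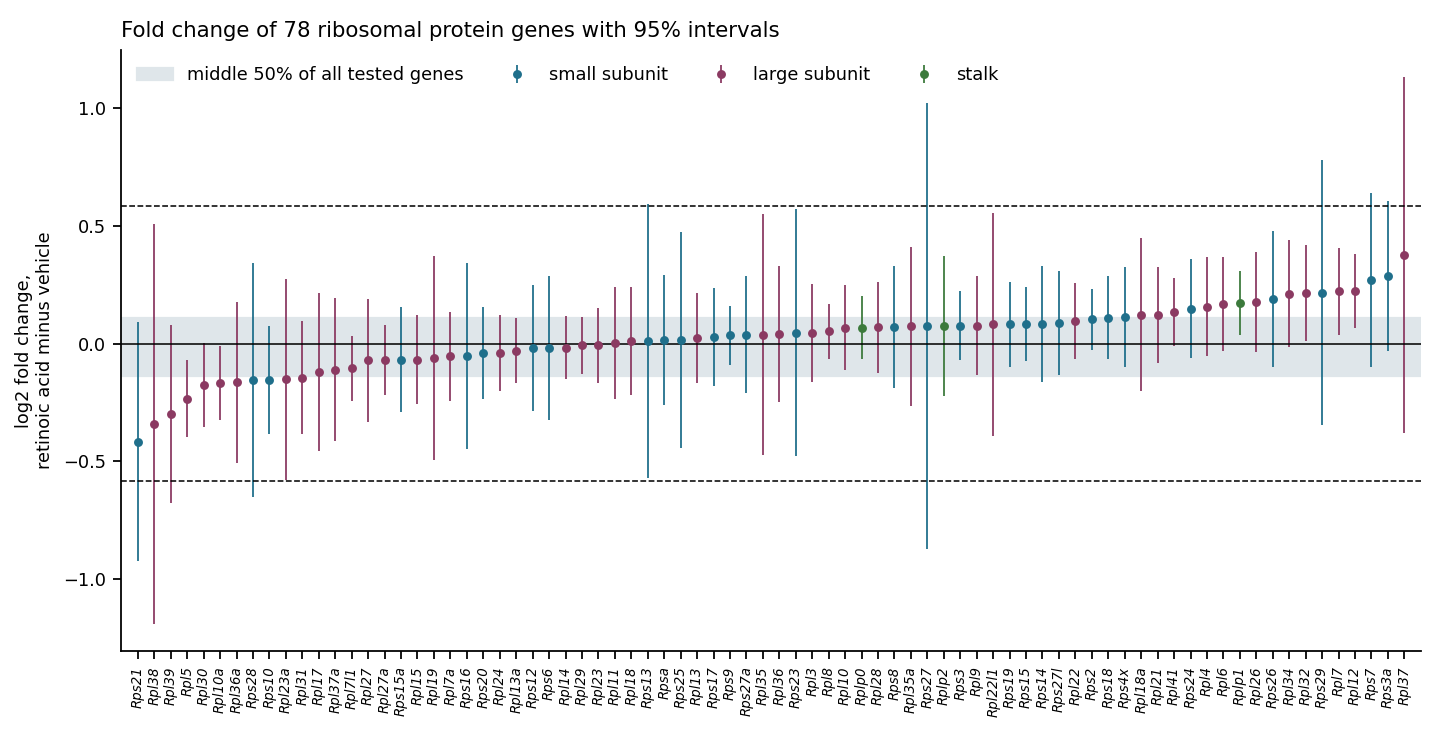
Log2 fold change (y axis, retinoic acid minus vehicle) of 78 tested ribosomal protein genes, in order of value, with 95% intervals from the edgeR fit. Dashed lines mark 1.5-fold in either direction and the grey band holds the middle 50% of all tested genes, from -0.14 to 0.11. The points run from -0.42 for Rps21 to 0.38 for Rpl37, both with wide intervals that include 0.

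The family's summed share of reads overlapped between the groups. The members took 0.553%, 0.561% and 0.573% of the reads in vehicle libraries 1 to 3. They took 0.564%, 0.580% and 0.540% in retinoic acid libraries 1 to 3. The highest and the lowest share were both in retinoic acid libraries, around the vehicle values. The mean share was 0.562% ± 0.00968 (SD, n = 3) in vehicle and 0.561% ± 0.0199 (SD, n = 3) with retinoic acid. Large subunit and stalk genes together drew 2.75 ± 0.0532 (SD, n = 3) reads for each small subunit read in vehicle and 2.75 ± 0.0111 (SD, n = 3) with retinoic acid. Rpl8 alone drew between 19.7% and 20.8% of all member reads in each library.

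Among the 32 small subunit genes, 0 were called and the median log2 fold change was 0.06. Of the 32, 24 were above 0, against 48% of all tested genes. With library totals and no scaling factor the small subunit median was -0.00106. Rps3, which lines the channel where the messenger RNA enters, stood at 374, 409 and 372 CPM in vehicle. With retinoic acid it stood at 412, 437 and 369 CPM, so the third library lay below all 3 vehicle values. The log2 fold change of Rps3 was 0.07 (SE 0.07, edgeR adjusted p = 0.598).

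Rps6, the small subunit protein that S6 kinases phosphorylate downstream of mTORC1, was counted at a low level. That level is uncertain, because Rps6 has no coding stretch of 50 bases found at no other locus. It had 7.98, 10.1 and 9.74 CPM in vehicle and 8.53, 9.63 and 9.3 CPM with retinoic acid. Its retinoic acid values all lay inside the vehicle range, with a log2 fold change of -0.02 (95% interval -0.32 to 0.29). Rpsa, also known as the laminin receptor precursor, stood at 10.9, 9.59 and 10.7 CPM in vehicle and 11.2, 9.97 and 10.3 CPM with retinoic acid. Its log2 fold change was 0.01 (95% interval -0.26 to 0.29). The pseudogene rows of Rpsa held 12035 vehicle reads against 514 on the gene, and with them added it was -0.01 (SE 0.06). Rps27a, made as a fusion with ubiquitin, stood at 12.8 ± 0.863 CPM in vehicle and 13.1 ± 0.356 CPM with retinoic acid (SD, n = 3 each), a log2 fold change of 0.04 (SE 0.12). Rps10, one of the genes whose start window is printed, stood at 16.9, 16.7 and 18.2 CPM in vehicle and 16.6, 14.7 and 15 CPM with retinoic acid. Its retinoic acid values all lay below the vehicle values, with a log2 fold change of -0.15 (SE 0.11, edgeR adjusted p = 0.459), which was -0.08 with its pseudogene rows added.

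At the low end of the small subunit, Rps21 had the lowest log2 fold change of all members, -0.42 (95% interval -0.93 to 0.09, edgeR adjusted p = 0.343). It was counted at 3.24, 4.38 and 5.07 CPM in vehicle and 2.62, 3.05 and 3.79 CPM with retinoic acid, and the groups overlapped.

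**Figure D2:**
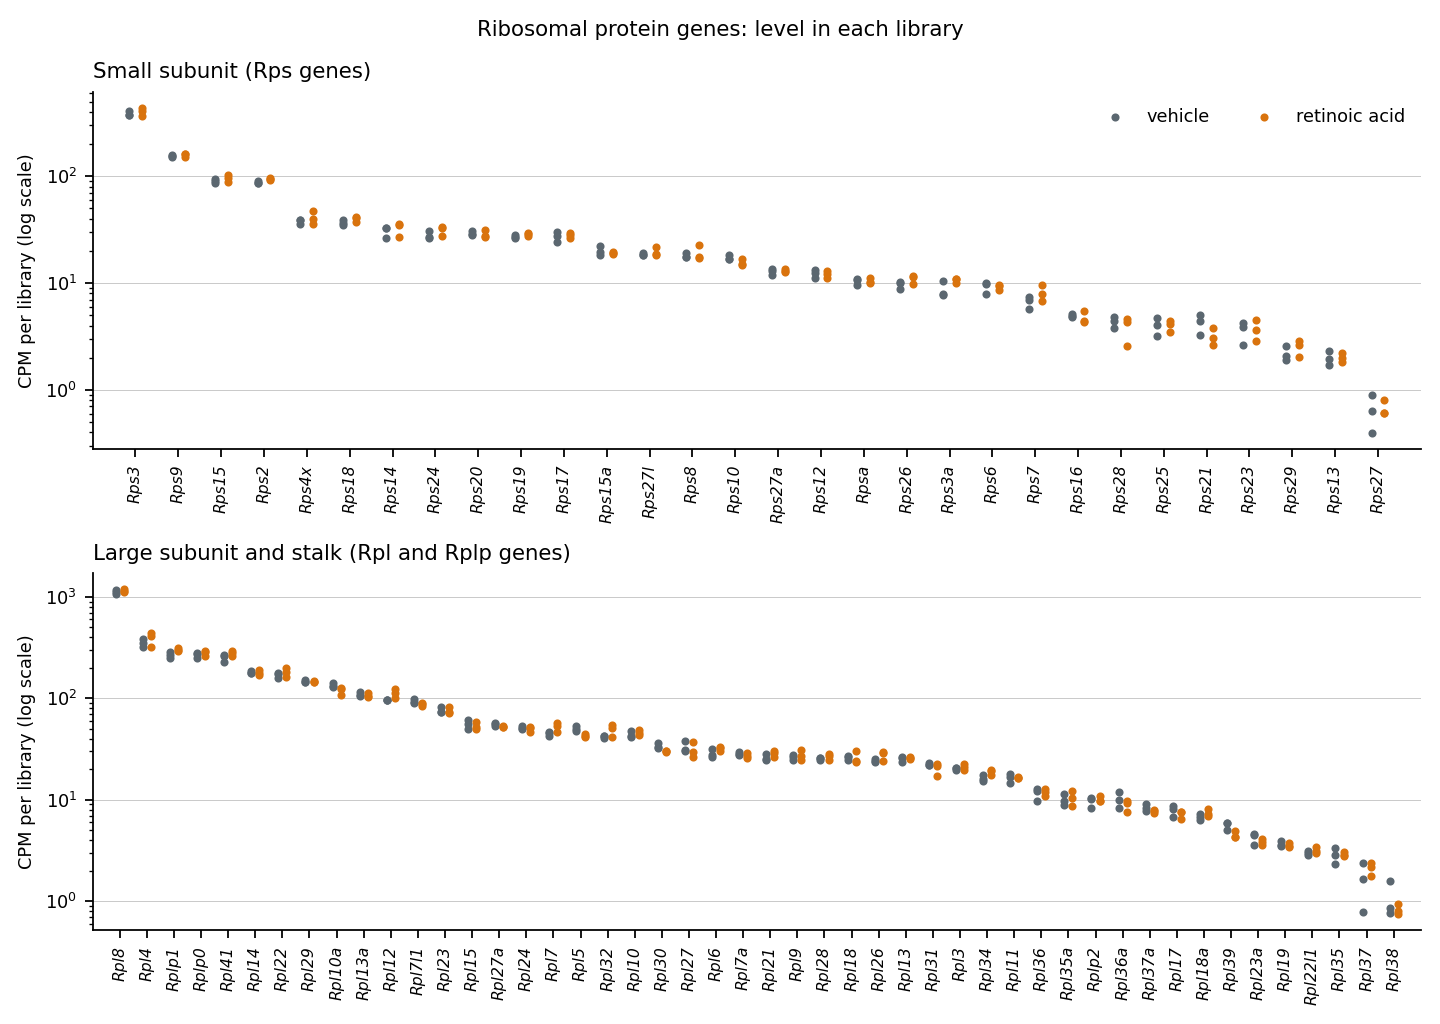
CPM in each library (log scale, y axis) of 78 tested ribosomal protein genes, small subunit above and large subunit with stalk below, in order of mean level; points are libraries, 3 vehicle in grey and 3 retinoic acid in orange. The genes run from Rpl8 at a vehicle mean of 1116 CPM to Rps27 at 0.640 CPM.

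Among the 46 large subunit genes outside the stalk, 45 were tested, 0 were called, and the median log2 fold change was 0.01, with 24 above 0. Rpl8, which sits near the centre where peptide bonds form, was the most counted member at 1069, 1108 and 1170 CPM in vehicle and 1151, 1191 and 1127 CPM with retinoic acid. Its values overlapped, with a log2 fold change of 0.05 (95% interval -0.06 to 0.17). Rpl4, whose loop reaches into the exit tunnel of the new peptide, stood at 380, 349 and 324 CPM in vehicle. With retinoic acid Rpl4 stood at 411, 443 and 321 CPM, so that 2 libraries lay above and 1 below every vehicle value. Its log2 fold change of 0.16 (SE 0.10) had an adjusted p of 0.397 by edgeR, and of 0.00666 without the third retinoic acid library, where the log2 fold change was 0.28.

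The members nearest to the threshold were both in the large subunit. Rpl5 (chromosome 5, 107900502 to 107909005), which binds 5S ribosomal RNA and, outside the ribosome, the p53 regulator Mdm2, had the smallest p. It stood at 53.7, 48 and 49.5 CPM in vehicle and at 44.2, 42 and 42.4 CPM with retinoic acid. All 3 retinoic acid values were below all 3 vehicle values, and the log2 fold change of -0.23 (SE 0.08) had an adjusted p of 0.0744 by edgeR. With library totals and no scaling factor, Rpl5 passed the threshold (adjusted p = 0.025). Rpl12 (chromosome 2, 32961559 to 32964496), at the base of the stalk, stood at 96.1, 96.8 and 96.1 CPM in vehicle. With retinoic acid it stood at 112, 124 and 101 CPM, above the vehicle values in 3 of 3 libraries. The log2 fold change of Rpl12 was 0.22 (SE 0.07, edgeR adjusted p = 0.0785). Without the third retinoic acid library it was 0.29 with an adjusted p of 0.00733, and with no filter on low counts the adjusted p was 0.0238. With its pseudogene rows added the log2 fold change fell to 0.14 (edgeR adjusted p = 0.324). Rpl5 overlaps Fam69a and Rpl12 overlaps Lrsam1 on the opposite strand, neither has a coding stretch of 50 bases found at no other locus, and whether the counting used strand is not given.

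Of the other large subunit genes with an unadjusted p under 0.05, Rpl7 and Rpl32 had positive log2 fold changes and Rpl10a a negative one. Rpl7 had a log2 fold change of 0.22 (SE 0.09, edgeR adjusted p = 0.139). Rpl32 had 0.21 (SE 0.10, edgeR adjusted p = 0.208), and its retinoic acid values of 50.7, 54.2 and 41.2 CPM overlapped the vehicle values of 42.4, 42.5 and 40.8 CPM. Without the third retinoic acid library, the adjusted p was 0.0184 for Rpl7 and 0.0116 for Rpl32. Rpl10a, the protein of the L1 stalk near the exit site of transfer RNA, stood at 132, 129 and 142 CPM in vehicle and 123, 107 and 127 CPM with retinoic acid. Its retinoic acid libraries all lay below the vehicle libraries, with a log2 fold change of -0.17 (SE 0.07, edgeR adjusted p = 0.193). Rpl5, Rpl12, Rpl7, Rpl32 and Rpl10a are named because they were among the 7 members with an unadjusted p under 0.05, a choice made after their values were seen. Rpl27a and Rpl15, whose start windows hold the longest tracts printed, were not called. Rpl27a stood at 55.7, 54.0 and 57.0 CPM in vehicle and 52.3, 53.8 and 52.6 CPM with retinoic acid, with no overlap. Its log2 fold change was -0.07 (SE 0.07, edgeR adjusted p = 0.626), and 0.06 with its pseudogene rows added. Rpl15 overlapped between groups, with a log2 fold change of -0.07 (SE 0.09, edgeR adjusted p = 0.730).

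At the low end, Rpl37 had the highest log2 fold change of all members, 0.38, with a 95% interval from -0.38 to 1.13. It rested on 1.68, 2.37 and 0.79 CPM in vehicle and 2.16, 1.76 and 2.38 CPM with retinoic acid, so 1 vehicle library was low and the groups overlapped. Rpl38, known for its part in the translation of Hox mRNAs in the embryo, had 1.07 ± 0.442 CPM in vehicle and 0.831 ± 0.0978 CPM with retinoic acid (SD, n = 3 each). Its log2 fold change of -0.34 had an interval from -1.19 to 0.51. At this depth a change of 1.5-fold was not detectable for either gene.

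The 3 stalk genes all had log2 fold changes above 0, as did 48% of all tested genes, and 0 of 3 were called. Rplp1, an acidic protein of the stalk's tip, had 249, 266 and 288 CPM in vehicle and 300, 313 and 292 CPM with retinoic acid. Its groups did not overlap, though only narrowly, and the log2 fold change was 0.17 (SE 0.06, edgeR adjusted p = 0.118). Its partner Rplp2 stood at 9.70 ± 1.17 CPM in vehicle and 10.2 ± 0.685 CPM with retinoic acid (SD, n = 3 each), a log2 fold change of 0.07 (SE 0.14). Rplp0, which anchors both to the ribosome, stood at 267 ± 15.6 CPM in vehicle and 280 ± 14.6 CPM with retinoic acid (SD, n = 3 each), a log2 fold change of 0.07 (SE 0.06).

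Of the ribosomal protein variants, close relatives of a standard gene, only the Rps4x relative Rps4l passed the test. Rps4l is listed in the table as Rps4y2, so the symbol rule left it out. It lies on chromosome 6, 148354656 to 148355598, and GENCODE annotates it as a transcribed processed pseudogene with a single exon. It was counted at 25.5, 18 and 16.2 CPM in vehicle and 32.2, 31.7 and 28.7 CPM with retinoic acid. All 3 retinoic acid libraries were above all 3 vehicle libraries, and the first vehicle library stood apart from the other two. The log2 fold change was 0.63 (SE 0.14, 95% interval 0.33 to 0.92, edgeR adjusted p = 0.0095). Without the second vehicle library it was 0.56 with an adjusted p of 0.0613, no longer past the threshold, and without the first it was 0.85.

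The standard gene Rps4x, on the X chromosome, was counted at 38.9, 38.7 and 35.8 CPM in vehicle and 39.4, 47.5 and 36.1 CPM with retinoic acid. The groups overlapped, with a log2 fold change of 0.11 (95% interval -0.10 to 0.33, edgeR adjusted p = 0.585). Whether Rps4l and Rps4x differed in their change was not tested. The pair shared 79.6% of 789 coding bases and none of the 740 words of 50 coding bases. Exact reads of that length can therefore be told apart between them. Reads from other copies are a separate matter: 9.86% of the words of Rps4x were found at no other locus, and 10 pseudogenes shared words with it. No such share is given here for Rps4l. The first 60 coding bases of Rps4x and Rps4l are shown with the 7 bases that differ in capitals.
Rps4x: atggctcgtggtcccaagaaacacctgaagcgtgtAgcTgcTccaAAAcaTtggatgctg
Rps4l: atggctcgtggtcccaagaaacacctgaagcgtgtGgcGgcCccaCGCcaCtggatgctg

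**Figure D3:**
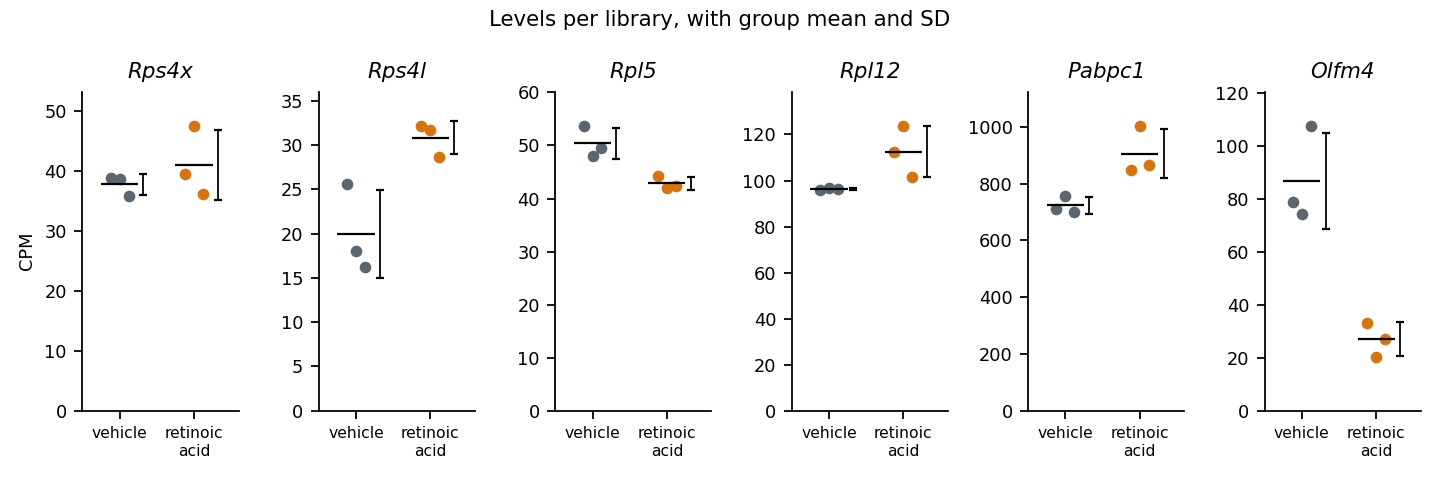
CPM in each library for Rps4x, Rps4l, Rpl5, Rpl12, Pabpc1 and Olfm4; points are the 3 libraries of a group, the line is the group mean and the bar its SD, and each y axis starts at 0. Rps4l, Pabpc1 and Olfm4 were called and their groups do not overlap, while Rps4x overlaps between groups.

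The other variants were counted above their standard genes in some pairs and below them in others. Compared per kilobase of coding sequence, Rpl7l1 stood at 127 CPM per kilobase in vehicle against 55.1 for Rpl7, and Rps27l at 73.4 against 2.54 for Rps27. All 252 coding bases of Rps27 are also in a second gene, Rps27rt, which had 6087 vehicle reads against 32 for Rps27. Reads from shared bases cannot be assigned, so the difference in level between Rps27l and Rps27 is uncertain. Of 50-base coding words, 78.1% in Rpl7l1 and 22.5% in Rpl7 were found at no other locus. Rpl22l1 stood at 8.17 CPM per kilobase against 442 for Rpl22. The log2 fold changes were -0.11 (SE 0.06) for Rpl7l1, 0.09 (SE 0.10) for Rps27l and 0.08 (SE 0.22) for Rpl22l1, and 0.10 (SE 0.08) for Rpl22. Rpl36al had 0.28 (SE 0.21) and Rpl36a -0.16 (SE 0.16). Rps27 had 0.07 (SE 0.44) and Rpl3 had 0.05 (SE 0.10). Rpl10 had 0.07 (SE 0.08) and Rpl39, a small protein of the exit tunnel, had -0.30 (SE 0.18). Rpl3l, the form known from heart and skeletal muscle, was listed at 0 reads in 2 vehicle libraries and at no more than 0.136 CPM in any library, and was not tested.

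Levels between members of the ribosome, which holds them in nearly equal numbers, ranged over 1330-fold per kilobase of coding sequence among the 80 tested genes. The ends were Rpl41, whose short coding sequence of 75 bases raises a value per kilobase, and Rps27, whose coding bases are all in Rps27rt. How much of the range comes from the divisor or from read assignment was not tested. For each member, coding words of 50 bases were searched in the transcripts of all other loci. The median member had 9.74% of its words to itself, and 29 of 81 had none, against 100 of 12486 tested protein-coding genes (0.801%). The median of tested protein-coding genes was 100%. Rps3 had 91.9% of its words to itself, Rpl8 91.3% and Rpl4 79.7%, and these are among the most counted members. Members with no unique word had a median of 31.6 CPM per coding kilobase in vehicle, and the 14 members with over 50% unique words had 194. Spearman's rho between the unique share and the vehicle CPM per coding kilobase was 0.37 across the 81 members, a description over genes that share libraries and pseudogenes. Rpl41, the shortest ribosomal protein, goes against it, with no unique word and the highest level per kilobase. Not divided by length, its vehicle mean of 253 CPM was below the 1116 CPM of Rpl8.

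**Figure D4:**
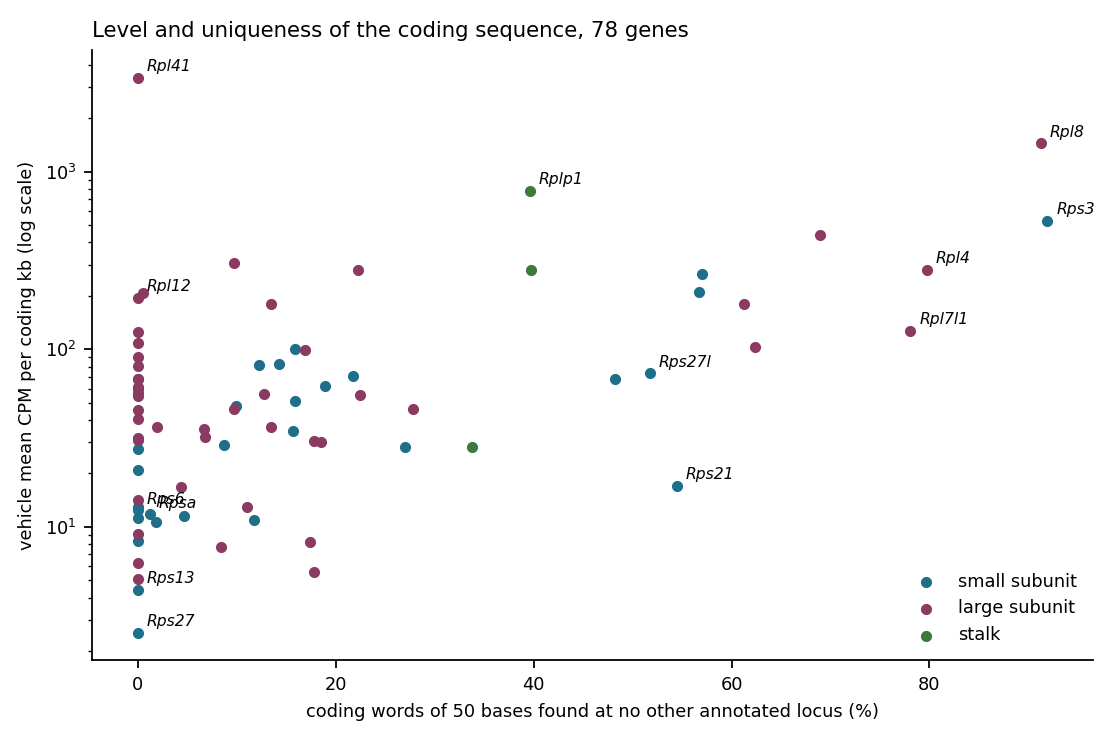
Vehicle mean CPM per coding kilobase (y axis, log scale) against the percent of coding words of 50 bases found at no other annotated locus (x axis) for 78 of the tested genes, coloured by subunit. Rps3, Rpl8 and Rpl4 lie at the upper right, Rps27 at the lower left, and Rpl41 at the upper left.

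Reads were also counted on copies of the members. The annotation held 1088 pseudogenes that share a coding word with a member, and 119 of them had a row in the table. Copies of Rpl24 were not searched for, because the row of that name carries the identifier of another gene, Zbtb11. The 119 rows took 0.163% ± 0.00707 of the reads in vehicle and 0.165% ± 0.00923 with retinoic acid (SD, n = 3 each). For 11 members the pseudogene rows summed to more vehicle reads than the gene itself. The largest was Gm10275 (chromosome 10, 29698746 to 29699379), with 7866, 6562 and 6338 vehicle reads, whose sequence holds all 495 coding bases of Rpl12. Rpsa-ps10 (chromosome 3, 150072590 to 150073620) had 4249, 3815 and 3935 vehicle reads and matched Rpsa at 879 of 885 coding bases. Rps27rt, listed as Gm9846, is annotated as protein coding, held all 252 coding bases of Rps27 and had 2355, 1869 and 1863 vehicle reads.

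The first 60 coding bases are shown because reads from identical stretches cannot be assigned to the gene or its copy. Rpl12 and Gm10275 are identical here, and the 1 base that differs between Rpsa and Rpsa-ps10 is in capitals.
Rpl12: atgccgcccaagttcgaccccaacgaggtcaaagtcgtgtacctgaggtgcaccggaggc
Gm10275: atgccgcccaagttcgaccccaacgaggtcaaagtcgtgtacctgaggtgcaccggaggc
Rpsa: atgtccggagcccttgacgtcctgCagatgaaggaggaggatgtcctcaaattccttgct
Rpsa-ps10: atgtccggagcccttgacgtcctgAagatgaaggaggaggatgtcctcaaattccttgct
How the authors' counting treated reads that match several places is not given in the sources used here, so the levels of members with few unique words are uncertain, and so are differences in level between members. Among the pseudogene rows, 33 were tested and 0 were called, with a smallest adjusted p of 0.156 by edgeR and 1 unadjusted p under 0.05. With each pseudogene row added to its member, 0 of the 80 members were called in either direction and their median log2 fold change was 0.04.

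**Figure D5:**
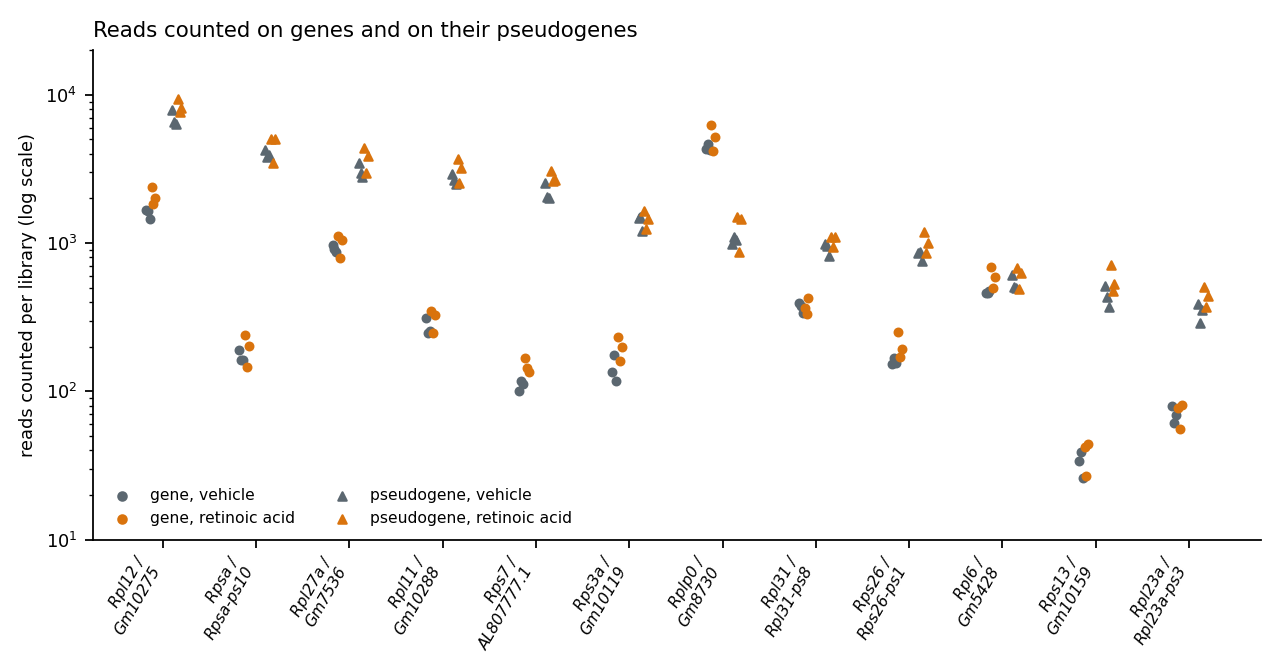
Reads counted per library (y axis, log scale) on 12 ribosomal protein genes (circles) and on the 12 pseudogene rows with the most vehicle reads (triangles), vehicle in grey and retinoic acid in orange; counts are not scaled for library size. Gm10275, Rpsa-ps10 and AL807777.1 lie above Rpl12, Rpsa and Rps7 in all 6 libraries, while Rplp0 lies above Gm8730.

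The row named Rpl24 carries the gene identifier of Zbtb11 and spans both genes (chromosome 16, 55966275 to 56008913), so its reads cannot be assigned to Rpl24. It stood at 51.3 ± 1.49 CPM in vehicle and 49.9 ± 3.19 CPM with retinoic acid (SD, n = 3 each), and without it the members' median log2 fold change was 0.04. Of ribosomal proteins whose names fall outside the pattern, Fau, made as a fusion with a ubiquitin-like protein, had a log2 fold change of -0.13 (SE 0.17). Rack1, the scaffold protein on the head of the small subunit, had 0.03 (95% interval -0.08 to 0.13) at 1454 ± 26.0 CPM in vehicle (SD, n = 3).

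Genes that make ribosomes or work with them were read from 11 lists, 250 genes in the table and 248 tested. Of these 248, 8 were called higher and 1 lower, against 5.37% and 4.09% of all tested genes. An unadjusted p under 0.05 was reached by 29 of the 248, against 21.6% of all tested genes. In the ribosome assembly list 0 of 51 tested genes were called (median log2 fold change 0.02, 1 unadjusted p under 0.05). In the RNA polymerase I list 0 of 11 were called by edgeR, with 0 at an unadjusted p under 0.05. The nucleolar proteins Npm1, Ncl and Fbl had log2 fold changes of 0.07 (SE 0.07), 0.05 (SE 0.05) and 0.08 (SE 0.16). Among elongation factors 0 of 12 were called by edgeR, with 2 at an unadjusted p under 0.05. Eef1a1 and Eef2, both encoded by TOP mRNAs, had 0.07 (SE 0.07) and 0.02 (SE 0.05). In the Myc network 0 of 10 tested genes were called by edgeR, with 1 at an unadjusted p under 0.05, and Myc itself had 0.03 (SE 0.06). Of 6 chaperones of ribosomal proteins 0 were called by edgeR, with 1 at an unadjusted p under 0.05.

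The genes that passed in these lists were in the initiation, TOP, mTORC1, p53 and mitochondrial lists. Pabpc1, the poly(A)-binding protein and a TOP mRNA, rose from 712, 756 and 702 CPM in vehicle to 848, 1003 and 867 CPM with retinoic acid. Its groups did not overlap, and the log2 fold change was 0.32 (SE 0.07, edgeR adjusted p = 0.00615). It was the sole call among 23 tested TOP mRNA genes outside the ribosomal proteins, where 9.46% of all tested genes were called. Of 36 initiation factors, 2 were called higher, Pabpc1 and the scaffold Eif4g3, against 5.37% of all tested genes. Eif4g3 had a log2 fold change of 0.24 (SE 0.07, edgeR adjusted p = 0.0454). Leaving out either of the first 2 vehicle or the first 2 retinoic acid libraries lost the call of Eif4g3, with adjusted p up to 0.185.

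In the mTORC1 list 2 of 23 genes were called, both higher, where 5.37% of all tested genes were called higher. Ddit4, an inhibitor of mTORC1 upstream of its activator Rheb, had a log2 fold change of 0.33 (SE 0.07, edgeR adjusted p = 0.00769). Eif4ebp1, which restrains cap-dependent translation until mTORC1 phosphorylates it, had 0.27 (SE 0.06, edgeR adjusted p = 0.0104). Without the first vehicle or the first retinoic acid library the call of Eif4ebp1 was lost, with adjusted p up to 0.0694. Mtor had -0.12 (SE 0.08) and Larp1 had -0.02 (SE 0.05), neither called. Of 19 genes in the p53 list, 2 were called higher, where 5.37% of all tested genes were called higher. Cdkn1a, the cell cycle inhibitor p21, stood at 677, 698 and 727 CPM in vehicle and 942, 872 and 980 CPM with retinoic acid, a log2 fold change of 0.41 (SE 0.06, edgeR adjusted p = 0.00042). Tnfrsf10b, a death receptor, had 0.41 (SE 0.07, edgeR adjusted p = 0.0026). Trp53 had 0.06 (SE 0.06) and Mdm2 had 0.09 (SE 0.07), neither called.

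Mitochondrial ribosomal proteins, which serve a separate ribosome, had 2 of 75 tested genes called higher and 1 lower. Of all tested genes, 5.37% were called higher and 4.09% lower. The median log2 fold change of the mitochondrial list was 0.01. Mrpl41 had 0.39 (SE 0.10), Mrpl48 had 0.23 (SE 0.07) and Mrpl49 had -0.30 (SE 0.08), with edgeR adjusted p of 0.0263, 0.0387 and 0.0284. The calls of Mrpl41, Mrpl48 and Mrpl49 were lost in 3, 6 and 4 of the 6 fits that left out a library, with adjusted p up to 0.117, 0.153 and 0.126.

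Total counts ran from 14919144 to 21833846 per library. The labelled cell type was checked by markers: 3 of 4 crypt stem cell genes (Lgr5, Olfm4 and Smoc2) fell and Ascl2 did not pass, with the list's summed level at 385 to 428 CPM in vehicle and 235 to 245 CPM with retinoic acid. The stem cell marker Olfm4 had a log2 fold change of -1.67 (SE 0.16, edgeR adjusted p = 7.43e-06). The 8 epithelial markers summed to 11494 to 12163 CPM in vehicle and 11461 to 12331 CPM with retinoic acid, with 0 of 8 called by edgeR and 4 at an unadjusted p under 0.05. The 6 fibroblast and the 4 smooth muscle markers summed to at most 1.84 and 0.856 CPM in any library. The 6 immune markers summed to at most 24.7 CPM in vehicle and 25.6 CPM with retinoic acid, with 2 tested and 0 called by edgeR. Csf1r made up most of that level, with a mean of 20.9 CPM, and Ptprc was listed at 0 in all retinoic acid libraries. The 4 endothelial markers summed to at most 2.49 CPM in any library, with 1 tested and 0 called by edgeR. The part of the stem cell marker levels in the results on ribosomal protein genes was not tested. The third library of each group stood apart from the other 2 on the second principal component. The third retinoic acid library was the lowest of its group for 35 of the 80 members and the highest for 18. In vehicle, the first library was the lowest for 37 members and the third the highest for 40.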

How the data were processed

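Counts per gene in 6 libraries were taken as the authors deposited them, from mm10 alignments per the submitters' processing notes; the sources used here do not give the aligner, annotation, strand setting or treatment of multiply matching reads. The deposited table also holds the authors' DESeq p-values, FDR (adjusted p-values), log2 fold changes and shrunken log2 fold changes. At an FDR of 0.05 that table calls 0 members. Counts were tested with edgeR 4.0.16 in R 4.3.3 (filterByExpr, TMM, quasi-likelihood, two-sided) over 13700 rows, with Benjamini-Hochberg adjustment and a threshold of 0.05; the script was tested on simulated data. Scaled CPM are for display. Coding words of 50 bases came from the principal transcript of each gene in GENCODE vM21, and start windows from RefSeq on GRCm38.p6. Of the 21534 identifiers 21102 matched the reference names. Alternatives were other scalings, no filter, DESeq2 1.42.0, limma-voom 3.58.1, the replicate number as a block and each library left out. The members and lists were chosen with earlier results of these data known. Named genes were every called member, the extremes of fold change, the 5 highest and 3 lowest levels, the variants with their standard genes, Rplp0, Rplp1, Rplp2, Rpsa, Rps6 and Rps27a, and, from the other lists, up to 4 called genes each and a set of well-known factors; some of these genes entered every fit and count but are not reported here by name or drawn. Alternatives with pseudogene rows added and without the Rpl24 row were chosen after seeing the data.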

Additional observations from a re-analysis of the deposited data

How the results depend on the processing

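The count of ribosomal protein genes called higher was 0 and rose to 1 with no filter on low counts, to 3 with the replicate number as a block and, over the fits that left out 1 library, to between 0 and 4 (4 without the third retinoic acid library). The count called lower was 0, and 1 with library totals and no scaling factor and 2 with the block; leaving out a library gave 0 in each of 6 fits. The block called Rpl12, Rpl7 and Rplp1 higher and Rpl5 and Rpl10a lower, and raised the calls over all genes from 736 higher and 560 lower to 1224 and 1052. Same-numbered libraries had correlations of their deviations of 0.128, 0.0975 and 0.257, 1 of them under 0.1, so the labels' numbers were not taken as pairs, although each library correlated best with its own number. With no scaling factor the median log2 fold changes were -0.0199 for all members, -0.00106 for the small and -0.0280 for the large subunit with its stalk (0.0384, 0.0573 and 0.0304 as reported). Leaving out 1 library gave 0.0202 to 0.0543, 0.0276 to 0.0812 and -0.00973 to 0.0361, and the log2 ratio of summed shares ran from -0.0262 to 0.0245 beside -0.00262. The genes in related lists called higher were 8 and called lower 1; no scaling factor gave 5 and 4, no filter 9 and 4, the block 12 and 8, and leaving out 1 library 5 to 7 higher and 0 to 4 lower. Of 700 alternative values of 50 named genes, 681 kept their direction and side of the threshold or had no call to lose, 8 lost the threshold, 11 reached it and 0 called values changed sign. Low counts limit Rps27, Rpl38 and Rpl37 most. The causes of these changes were not tested.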
